A study of Homo sapiens with 6 samples.

Results

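Keratin genes were examined in SCC25, an established cell line of human oral squamous cell carcinoma, a tumor of the head and neck (HNSCC). They were taken as the protein-coding genes whose symbol is KRT, a number and at most 1 letter, which leaves out the keratin-associated proteins. The rule found 32 keratins among the 21776 genes of the count table, 14 of type I and 18 of type II, and 16 of the 32 had enough reads to be tested. SCC25 cells of genotype WT were grown in DMEM/F12 with 10% FBS and antibiotics and were then kept for 12 h either in hypoxia (1% O2, 5% CO2, balanced N2) or in normoxia (5% CO2 in air), with 3 RNA-seq libraries per condition. Counted reads per library came to 30186813, 36076088 and 32272716 under hypoxia and to 37278703, 29637189 and 29981208 under normoxia, each in the order of the replicate numbers, as are all values per library given here. The study's text also refers to SCC9 for part of its transcriptome analysis, and the sample labels, which name SCC25 throughout, were followed here. Nothing in the labels says that the replicates came from separate cultures, so p-values measure the spread between these libraries, which may be technical.

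Keratins are the intermediate filament proteins of epithelial cells. Each filament is built from heterodimers of an acidic type I keratin and a basic type II keratin, so that a cell needs members of both types. Epithelia use them in characteristic pairs. KRT5 with KRT14 or KRT15 marks the basal layer of stratified epithelia, KRT6 paralogs with KRT16 and KRT17 appear in wounded or hyperproliferative epithelium, KRT1 with KRT10 and KRT4 with KRT13 belong to differentiated skin and mucosa, KRT8 with KRT18 is the pair of simple epithelia, and the hair keratins belong to the hair shaft. Squamous carcinomas often combine several of these programs.

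Several keratins are close copies, which bears on how far their reads can be told apart. The coding sequences of KRT6A, KRT6B and KRT6C, each of 1692 bases in GENCODE v29, were 97.5% identical between KRT6A and KRT6B, 97.9% between KRT6A and KRT6C and 98.5% between KRT6B and KRT6C. The stretch of 60 coding bases in which the KRT6 copies differed most is shown because it is the kind of sequence by which reads are assigned to a copy. The build is GRCh38, all are on the minus strand, the stretch starts at coding base 663, and capitals mark the 9 positions at which the copies differ.
KRT6A, chr12:52491555-52491614: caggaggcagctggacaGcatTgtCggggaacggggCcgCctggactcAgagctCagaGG
KRT6B, chr12:52450439-52450498: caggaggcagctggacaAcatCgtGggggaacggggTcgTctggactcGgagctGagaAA
KRT6C, chr12:52472099-52472158: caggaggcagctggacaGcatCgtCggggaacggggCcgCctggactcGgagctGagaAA
By contrast, the first 60 coding bases are the same in the KRT6 copies (KRT6A at chr12:52493129-52493188), and a read from there fits each of them.
Start of KRT6A, KRT6B and KRT6C: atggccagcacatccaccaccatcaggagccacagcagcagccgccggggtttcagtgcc
Of all windows of 100 bases along the transcripts, 18.2% of those of KRT6A, 24.6% of those of KRT6B and 31.6% of those of KRT6C were shared with another KRT6 copy. With windows of 50 bases the shares were 37.2%, 46.8% and 53.4%, and the read length is not given in the sources used here.

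The type II hair keratins are also close, with coding sequences 94.2% identical between KRT81 and KRT86, 93.4% between KRT81 and KRT83 and 91.5% between KRT83 and KRT86, and 29.4% of the 100-base windows of KRT81 and 27.0% of those of KRT86 were shared within this family (42.1% and 37.0% with 50 bases). The KRT86 transcript used here held 1992 windows of 100 bases, whereas the deposited gene length of KRT86 is 6548 bases. Its shared part may thus be smaller in the sequence that was counted. The stress keratins of type I are more distinct. KRT16 and KRT17 were 80.9% identical, KRT14 and KRT16 88.7%, and 3.82% of the 100-base windows of KRT16 and 0.0% of those of KRT17 were shared within this family (12.0% and 1.77% with 50 bases). How reads that match several copies were counted is not given in the sources used here, so the values of single KRT6 copies and of KRT86 are uncertain.

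Hypoxia raised some keratins and lowered others. KRT15, a type I keratin of basal cells, rose 11.2-fold, and the KRT6 paralogs, type II keratins of stressed epithelium, fell to between 0.0577 and 0.159 of their normoxic level. By edgeR's quasi-likelihood test with Benjamini-Hochberg adjustment over all tested genes and a threshold of 0.05, 8 of the 16 tested keratins were higher in hypoxia and 8 were lower. This is read against the whole table, in which 77.8% of the tested genes passed the same test, 39.2% higher and 38.5% lower, so that passing the test was common. A log2-fold change beyond 1 in size was reached by 8 of the 16 keratins, 5 higher and 3 lower, compared with 30.4% of all tested genes (19.9% higher and 10.5% lower). The other 8 keratins changed by less than 0.7 on the log2 scale. Of the type I keratins tested, 5 were higher and 2 lower, with a median log2-fold change of 1.69; of the type II keratins, 3 were higher and 6 lower, with a median of -0.22. The median over the 14255 tested genes was 0.02. KRT13 and KRT19 passed the filter on low counts only through the hypoxia libraries and KRT6C only through the normoxia libraries, so these genes could hardly enter the test without a difference.

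**Figure D1:**
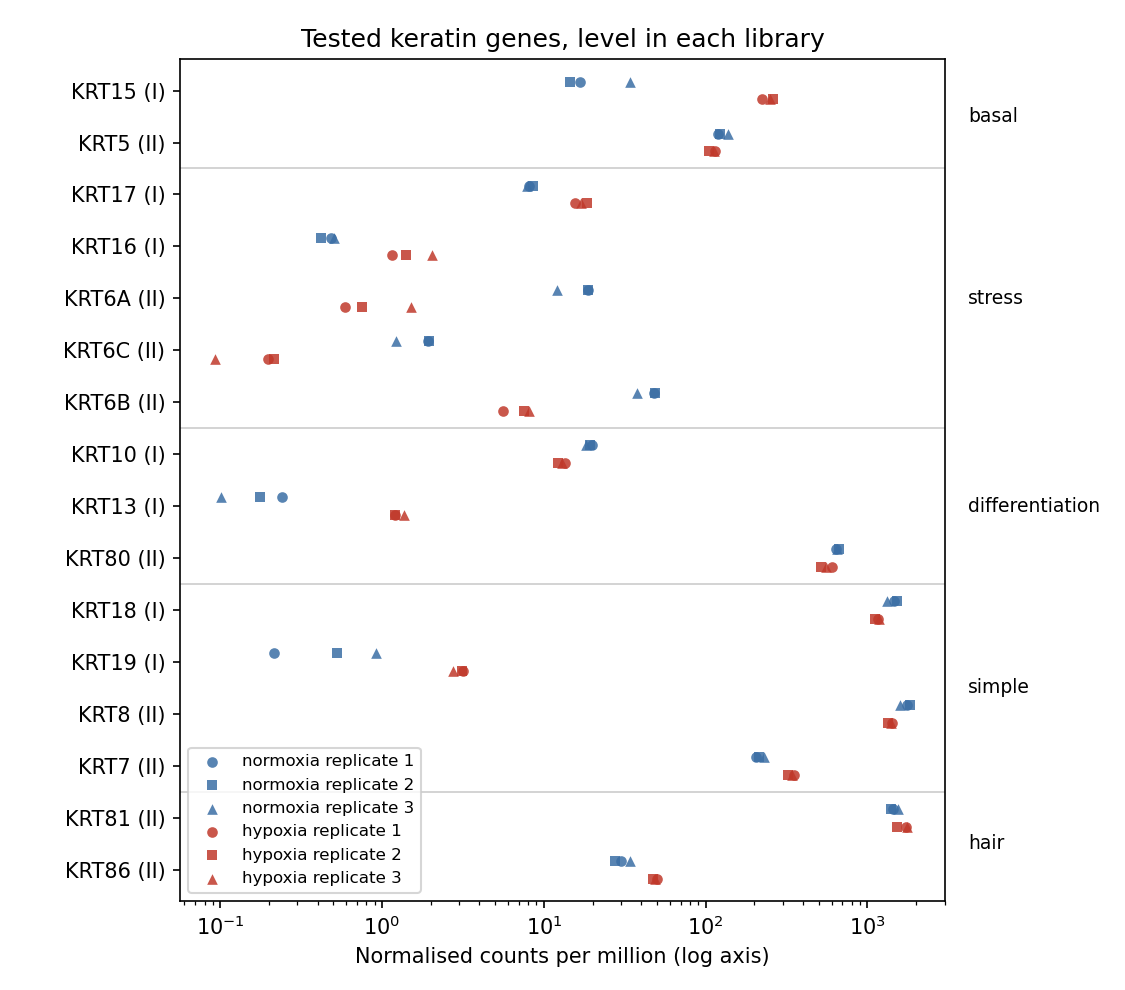
Level of each tested keratin in each library, in CPM on a log axis, grouped by role, with the type in brackets; blue stands for normoxia, red for hypoxia and the marker shape for the replicate. KRT15 lies between 14.6 and 34.2 in normoxia and between 222 and 261 in hypoxia, the KRT6 copies move the other way, and the abundant KRT8, KRT18 and KRT81 move little.

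**Figure D2:**
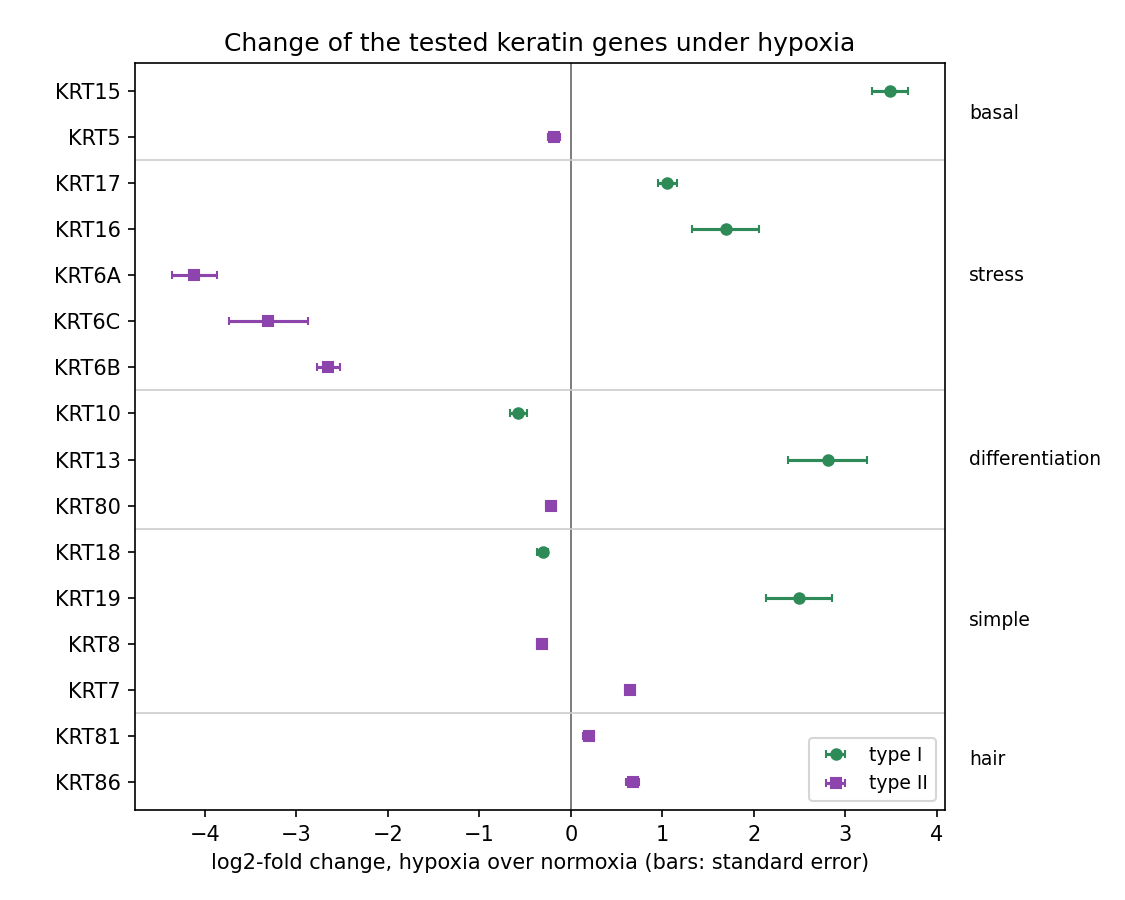
Log2-fold change of each tested keratin, hypoxia over normoxia, with its standard error as a bar; circles are type I and squares type II keratins. The changes run from -4.12 for KRT6A to 3.49 for KRT15, and within the stress group the type I keratins lie above 0 and the type II keratins lie under 0.

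Among the basal keratins, KRT15 measured 222, 261 and 250.2 CPM (counts scaled to a common library size after TMM normalization) in the hypoxia libraries and 16.7, 14.6 and 34.2 CPM in the normoxia libraries. Every hypoxia library was above every normoxia library, and normoxia replicate 3 was the highest of its group. The log2-fold change was 3.49 (SE 0.195, adjusted p = 3.32e-11, edgeR). Its type II partner KRT5 measured 115, 105 and 113 CPM in hypoxia and 119, 122 and 137 CPM in normoxia, a change of -0.18 on the log2 scale (SE 0.0623, adjusted p = 0.013, edgeR). The KRT5 levels lay close together without overlapping, and the call was lost when the libraries were scaled by their totals alone (adjusted p = 0.0505), when at least 10 counts were required in every library (0.127) or without hypoxia replicate 2 (0.0624). KRT14, the usual type I partner of KRT5, had 1 read in all 6 libraries, in normoxia replicate 2. A level up to that of 3 reads, 0.0806 to 0.105 CPM depending on the library, cannot be told from its absence at this depth. The basal type I transcripts of these cells were thus nearly all KRT15, with a summed level of 83.5 ± 7.65 FPKM in hypoxia and 7.24 ± 3.58 FPKM in normoxia (fragments scaled to gene length and library total; SD, n = 3).

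Normoxia replicate 3 also had the highest CPM of each of 6 hypoxia response genes among the normoxia libraries, with a summed level of 848, 805 and 1203 CPM in normoxia replicates 1 to 3. NDRG1, a gene induced by hypoxia, measured 163, 140.4 and 409 CPM in normoxia replicates 1 to 3, and the carbonic anhydrase gene CA9 32.2, 27.3 and 67.7 CPM. The lean was smaller for BNIP3 (85.7, 83.7 and 112 CPM), VEGFA (180, 168 and 205 CPM), PDK1 (37.4, 34.8 and 42.2 CPM) and SLC2A1 (349, 351 and 367 CPM). In hypoxia NDRG1 and CA9 reached 9007, 10512 and 10638 CPM and 262, 277 and 293 CPM. As a check of the condition labels, all 6 genes were higher in hypoxia in edgeR's test, where 39.2% of all tested genes were, with a median log2-fold change of 2.26 against 0.02 over all tested genes. Among the 16 tested keratins, normoxia replicate 3 was the normoxia library nearest to hypoxia for 12, the farthest for 3 (KRT5, KRT13 and KRT17) and between the others for 1 (KRT80). The same share over all tested genes was not computed, so this count is not read as a trait of the keratins. Without normoxia replicate 3, the log2-fold change of KRT15 was 3.94 and that of KRT6A was -4.31. The part of this library's state in the keratin values was not tested.

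In the stress group, the type II and type I members moved in opposite directions. KRT6A measured 0.59, 0.753 and 1.51 CPM in hypoxia and 18.7, 18.8 and 12.0 CPM in normoxia. KRT6B, the copy with the highest FPKM, measured 5.60, 7.55 and 8.14 CPM in hypoxia and 48.0, 48.8 and 37.4 CPM in normoxia. KRT6C was sparse, with 0.197, 0.215 and 0.0925 CPM in hypoxia against 1.93, 1.96 and 1.22 CPM in normoxia. No hypoxia library reached any normoxia library for any KRT6 copy, and normoxia replicate 3 was the lowest of its group for each. The log2-fold changes were -4.12 for KRT6A (SE 0.246, adjusted p = 7.48e-11), -2.65 for KRT6B (SE 0.126, adjusted p = 4.22e-12) and -3.31 for KRT6C (SE 0.435, adjusted p = 2.11e-06) in edgeR's test. With the copies summed, so that the division of shared reads among them no longer enters, the log2-fold change was -2.93 (adjusted p = 2.47e-12, edgeR). KRT6A, by the fitted values, fell 17.3-fold and KRT6B 6.28-fold. On the log2(FPKM + 1) scale, which shrinks the change of low genes, KRT6A changed by -2.49.

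KRT17, a type I keratin induced in wounded and proliferating epithelium, measured 15.6, 18.4 and 17 CPM in hypoxia and 8.14, 8.53 and 7.88 CPM in normoxia. KRT16 measured 1.15, 1.40 and 2.03 CPM in hypoxia and 0.484, 0.419 and 0.507 CPM in normoxia. Both were higher in every hypoxia library, KRT17 with the narrower spread. The log2-fold change of KRT17 was 1.06 (SE 0.106, adjusted p = 6.8e-08, edgeR) and that of KRT16 was 1.69 (SE 0.362, adjusted p = 0.000399, edgeR). Summing KRT14, KRT16 and KRT17, which mixes them in proportion to their reads, gave 1.10 (adjusted p = 2.99e-08, edgeR). Per length, the summed stress keratins of type II were at 2.81, 3.82 and 4.25 FPKM in hypoxia and 29.7, 29.1 and 21.7 FPKM in normoxia, whereas those of type I were at 11.1, 13.4 and 12.5 FPKM in hypoxia and 5.65, 5.67 and 5.42 FPKM in normoxia. Type II was therefore the more abundant side of the stress group in normoxia and type I in hypoxia, in every library.

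Of the 13 keratins listed as markers of differentiation, 6 were in the table and 3 were tested. KRT13, the type I keratin of differentiated oral mucosa, measured 1.21, 1.21 and 1.36 CPM in hypoxia and 0.242, 0.175 and 0.101 CPM in normoxia, a log2-fold change of 2.81 (SE 0.431, adjusted p = 1.31e-05, edgeR). It stayed scarce in both conditions, with 37, 45 and 44 reads in hypoxia and 9, 5 and 3 in normoxia. KRT10, the type I keratin of differentiated epidermis, went the other way, from 19.9, 19.3 and 18.2 CPM in normoxia to 13.5, 12.2 and 12.9 CPM in hypoxia, a log2-fold change of -0.57 (SE 0.0924, adjusted p = 2.26e-05, edgeR). KRT80, a type II keratin with wide expression in epithelia, measured 606, 520.1 and 553 CPM in hypoxia and 643, 663 and 647 CPM in normoxia, a log2-fold change of -0.22 (SE 0.0567, adjusted p = 0.00208, edgeR). The conditions did not overlap for any of them, as for 80.5% of all tested genes, and the group had no common direction. The type II partners KRT4 of KRT13 and KRT2 of KRT10 were in the table but had too few reads to be tested.

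The simple-epithelium keratins were the most abundant group. KRT8 measured 1409, 1334 and 1405 CPM in hypoxia and 1749, 1839 and 1581 CPM in normoxia, and its partner KRT18 measured 1168, 1114 and 1181 CPM in hypoxia and 1452, 1518 and 1322 CPM in normoxia. Both were lower in every hypoxia library, and normoxia replicate 3 was nearest to hypoxia for each. Their log2-fold changes were nearly the same, -0.32 for KRT8 (SE 0.0578, adjusted p = 8.22e-05) and -0.31 for KRT18 (SE 0.0564, adjusted p = 8.25e-05) in edgeR's test. KRT7, a type II keratin of glandular and ductal epithelium, rose from 206, 214 and 228 CPM in normoxia to 351, 321 and 342 CPM in hypoxia, a log2-fold change of 0.65 (SE 0.0555, adjusted p = 8.64e-09, edgeR). KRT19, a type I keratin without the usual tail domain, measured 3.18, 3.12 and 2.74 CPM in hypoxia and 0.215, 0.524 and 0.913 CPM in normoxia, a log2-fold change of 2.49 (SE 0.361, adjusted p = 6.8e-06, edgeR). KRT19 was low in this line even in hypoxia, with at most 116 reads in a library, and on the log2(FPKM + 1) scale its change was 1.22. The exons of KRT8 and KRT18 overlap by 525 bases on opposite strands in GENCODE v29, 7.63% of the exon bases of KRT8 and 16.3% of those of KRT18, and strand use in counting is not given in the sources used here. These percentages refer to the exons of all annotated transcripts. The gene lengths behind the deposited values are shorter, 1988 bases for KRT8 and 1497 bases for KRT18. How much of the overlap lies in the exons that were counted is therefore not known. Exon bases are also shared with measured genes of the other strand by KRT7 (282 bases, KRT7-AS) and KRT10 (56 bases, KRT10-AS1). KRT7-AS was at 2.13 ± 0.434 CPM in hypoxia and 1.69 ± 0.502 CPM in normoxia (SD, n = 3) and did not pass the test. KRT10-AS1 was at 11.1 ± 0.214 CPM in hypoxia and 7.86 ± 1.02 CPM in normoxia (SD, n = 3), a log2-fold change of 0.50 (adjusted p = 0.00123, edgeR) against the direction of KRT10.

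The hair keratin KRT81 was among the keratins with the highest FPKM in this oral line. It measured 1727, 1520.2 and 1759 CPM in hypoxia and 1433, 1403 and 1537 CPM in normoxia. The conditions overlapped in CPM, since hypoxia replicate 2 lay under normoxia replicate 3. KRT81 was the only tested keratin whose conditions overlapped in CPM. Over the table, 40.6% of the tested genes had no overlap in CPM with hypoxia above and 39.9% with hypoxia below. By FPKM KRT81 did not overlap, at 906, 812 and 917 in hypoxia and 741, 702 and 786 in normoxia. Its log2-fold change was 0.20 (SE 0.0602, adjusted p = 0.007, edgeR), and the call was lost without hypoxia replicate 3 (adjusted p = 0.0609). KRT86 measured 50.2, 47.4 and 48.5 CPM in hypoxia and 29.8, 27.7 and 34.0 CPM in normoxia, a log2-fold change of 0.67 (SE 0.0744, adjusted p = 2.39e-07, edgeR). KRT86 had 2.55% as many reads as KRT81, and summed with KRT81 and KRT83 the log2-fold change was 0.21, which is essentially the value of KRT81. How many of the KRT86 reads came from windows shared with KRT81 was not tested.

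The 16 keratins that were not tested had few reads, 12 at most in any library, and 11 of them had 3 or fewer in every library. For 9 of them, the 6 libraries together held 1 read. The untested keratins were KRT14 of the basal group, KRT2, KRT4 and KRT78 of the differentiation group, the hair follicle keratins KRT75 and KRT79, KRT23, KRT222 and the hair keratins KRT32, KRT33B, KRT34, KRT38, KRT82, KRT83, KRT84 and KRT85. Type I hair keratins had at most 7 reads in a library (KRT34), although the type II hair keratin KRT81 was abundant.

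The keratin transcripts as a whole took a similar share of the reads in both conditions, 0.576, 0.543 and 0.573% in hypoxia and 0.574, 0.57 and 0.552% in normoxia, with overlapping ranges. Levels of different keratins are compared per length, as FPKM. In normoxia KRT18 (939 ± 59.2 FPKM), KRT8 (852 ± 58.7) and KRT81 (743 ± 42.1; SD, n = 3) led, and neighbours in this order overlapped between libraries. In hypoxia KRT81 (878 ± 57.3 FPKM) was ahead of KRT18 (783 ± 14) and KRT8 (707 ± 13.0; SD, n = 3) without overlap. KRT80 followed with 145 ± 0.401 FPKM in normoxia and 129 ± 9.01 FPKM in hypoxia (SD, n = 3), where it overlapped KRT7 at 129 ± 4.39 FPKM. KRT15 stood at rank 9 of the 16 in normoxia, where it overlapped KRT10 and KRT6A, and at rank 6 in hypoxia, above KRT5 (50.4 ± 1.94 FPKM; SD, n = 3). KRT6B went from 19.1 ± 2.68 FPKM and rank 7 to 3.13 ± 0.588 FPKM and rank 11 (SD, n = 3). The KRT86 value depends on its long deposited gene length of 6548 bases and would be higher with a shorter transcript.

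**Figure D3:**
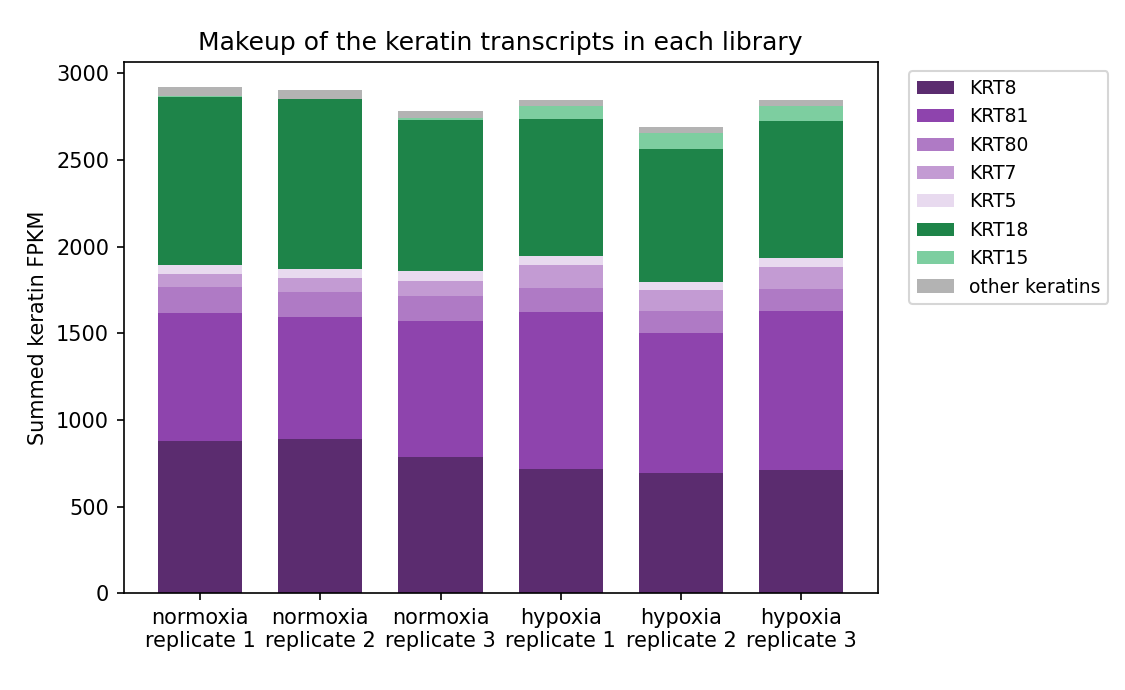
Summed keratin FPKM of each library, stacked by gene, with type II keratins in purple, type I in green and the other keratins in grey. KRT8, KRT18 and KRT81 make up most of each bar; the KRT15 segment is visible in the hypoxia libraries, where it holds 3.0% of the keratin FPKM, and is too thin to see in normoxia, where it holds 0.254%.

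By role, the simple keratins held 65.2 ± 2.41% of the keratin FPKM in normoxia and 58.1 ± 0.783% in hypoxia (SD, n = 3), and the hair keratins 26.1 ± 2.10% and 31.7 ± 1.07%. The basal keratins held 2.19 ± 0.340% in normoxia and 4.80 ± 0.340% in hypoxia (SD, n = 3), the stress keratins 1.13 ± 0.135% and 0.572 ± 0.0765%, and the differentiation keratins 5.38 ± 0.111% and 4.87 ± 0.246%. Single genes carried several of these shares. KRT81 alone held 25.9% in normoxia and 31.4% in hypoxia, and KRT80, of the differentiation group, 5.07% and 4.62%. The basal share rose through KRT15, from 0.254% in normoxia to 3.0% in hypoxia. In percentage points the abundant simple and hair groups moved most, whereas relative to their own share the basal and stress groups did. Summed over all members, type II exceeded type I by FPKM in every library, by ratios of 2.21, 2.06 and 2.16 in hypoxia and 1.95, 1.91 and 2.10 in normoxia, which overlapped. In bulk RNA, a lower level can come from fewer cells that express a gene or from less RNA in each, and these cannot be told apart.

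The ratio of the partners within each pair shows where the balance moved. KRT8 stood to KRT18 as 0.909, 0.902 and 0.896 by FPKM in hypoxia and as 0.907, 0.912 and 0.901 in normoxia. This pair kept its balance, with a log2 ratio of -0.148 ± 0.00996 in hypoxia and -0.141 ± 0.00913 in normoxia (SD, n = 3), although both partners were lower in hypoxia. As the exons of KRT8 and KRT18 overlap on opposite strands and strand use is not given, their counts may share reads. The part of such reads in the ratio was not tested. KRT5 stood to KRT15 as 9.45, 11.1 and 5.34 in normoxia and as 0.693, 0.534 and 0.600 in hypoxia by FPKM, a change of the mean log2 ratio of -3.77. KRT6A stood to KRT16 as 27.7, 32.1 and 17 in normoxia and as 0.369, 0.387 and 0.533 in hypoxia by FPKM, a change of -5.87 on the log2 scale. KRT6B stood to KRT17 as 3.89, 3.77 and 3.13 in normoxia and as 0.237, 0.270 and 0.316 in hypoxia by FPKM, a change of -3.72 on the log2 scale. In these 3 pairs the type II partner was the more abundant in every normoxia library and the type I partner in every hypoxia library. For KRT5 with KRT14, KRT6C with KRT16, KRT7 with KRT19, KRT1 or KRT2 with KRT10, KRT4 with KRT13 and KRT3 with KRT12, at least 1 partner had fewer than 10 reads in a library and no ratio is given.

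**Figure D4:**
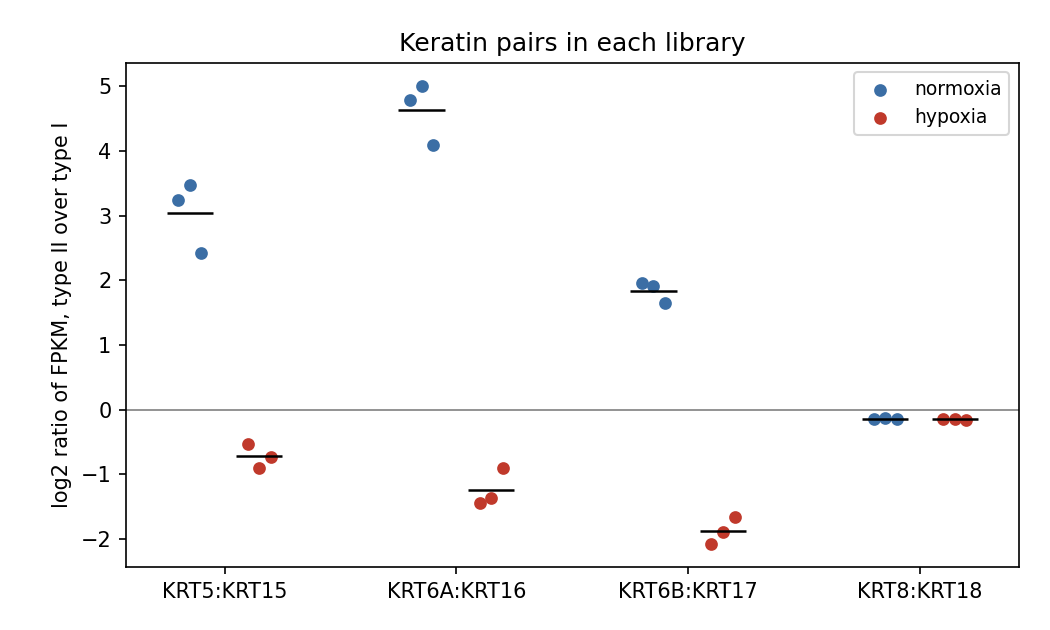
Log2 ratio of FPKM of the type II over the type I partner for 4 keratin pairs, 1 point per library (blue, normoxia; red, hypoxia), with the mean of each condition as a black line. The pairs of KRT5, KRT6A and KRT6B cross 0 between the conditions, from means of 3.04, 4.63 and 1.84 to -0.72, -1.24 and -1.88, and KRT8:KRT18 stays at the same place.

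Keratin genes lie in a cluster on chromosome 12, mostly of type II with KRT18 at its edge, and in a type I cluster on chromosome 17. In the order of RefSeq genes of GRCh38.p14, the tested neighbours often had the same direction. On chromosome 17, KRT13, KRT15 and KRT19 follow each other and were all higher in hypoxia, as were the adjacent KRT16 and KRT17, whereas KRT10, elsewhere in the cluster, was lower. On chromosome 12, KRT7, KRT86 and KRT81 follow each other and were higher with the lower KRT80 beside them, KRT6B, KRT6C and KRT6A follow each other and were lower with KRT5 beside them, and KRT8 and KRT18 are adjacent and were both lower. KRT13 and KRT19 passed the filter on low counts only through the hypoxia libraries and KRT6C only through the normoxia libraries. These genes could hardly have stood here with the other direction. KRT9 and KRT14, between KRT19 and KRT16, were not tested. Some of these neighbours are close copies, as shown for KRT6A, KRT6B and KRT6C and for KRT81 and KRT86, and the order is given as a description.

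Genes that anchor or share the filament system were read in the same edgeR test. Of 14 tested plaque and linker genes, most of which join keratin filaments to desmosomes, hemidesmosomes and other structures, 7 were higher and 7 lower, with a median log2-fold change of 0.02, the value over all tested genes, of which 77.8% passed (39.2% higher and 38.5% lower). The number of lower genes was 5 with library totals alone, with at least 10 counts in every library or without hypoxia replicate 1. PPL (periplakin) rose from 137 ± 23.0 to 387 ± 8.88 CPM and PKP1 (plakophilin 1) from 54.0 ± 5.43 to 125 ± 7.93 CPM (SD, n = 3). PLEC (plectin), the gene with the most reads though not the highest FPKM, fell from 1537 ± 47.7 to 864 ± 42.3 CPM and TCHP (trichoplein) from 28.1 ± 0.647 to 14.6 ± 0.248 CPM (SD, n = 3). The list includes SFN (14-3-3 sigma), an adaptor protein and not a linker, which is among the 7 lower genes and also stands in the squamous list given further on. The group had no common direction.

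Of 7 tested intermediate filament genes outside the keratins, 2 were higher, 4 lower and 1 did not pass, with a median of -0.52, and 6 of 7 is near the share of 77.8% that passed over all tested genes. NES (nestin) rose from 4.32 ± 1.01 to 12.0 ± 1.45 CPM and BFSP1, a lens filament gene, from 3.28 ± 0.165 to 7.65 ± 0.409 CPM, while the nuclear lamin genes LMNB1 (235 ± 11 to 102 ± 5.56 CPM) and LMNB2 (769 ± 16 to 417 ± 28.2 CPM; SD, n = 3) fell. Of 13 tested transcription factors known to act on keratin genes, 6 were higher, 6 lower and 1 did not pass, with a median of 0.12, against the same 77.8% over all tested genes. With 1 library left out at a time, 5 to 7 of the listed factors were higher and 6 to 7 lower. Without a filter on low counts, or with at least 10 counts in every library, 5 were higher and 6 lower. ZNF750 and GRHL1, factors of epidermal differentiation, rose from 0.16 ± 0.0432 to 1.12 ± 0.404 CPM and from 14.4 ± 1.01 to 60 ± 5.91 CPM, and the AP-1 subunit gene FOSL1, the highest of the list by reads and by FPKM, fell from 633 ± 77.5 to 194 ± 14.4 CPM (SD, n = 3). ZNF750 had 5, 6 and 4 reads in normoxia and passed the filter only through the hypoxia libraries, so it could hardly enter the test without a difference. Whether these factors bear on the keratin values was not tested.

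The labelled cell type was checked with markers. All 12 squamous epithelium markers were tested, 8 were higher, 2 lower and 2 did not pass (over all tested genes 77.8% passed, 39.2% higher and 38.5% lower), and their summed level was 5028, 5301 and 5216 CPM in hypoxia and 3218, 3247 and 3595 CPM in normoxia. LAMB3, a laminin chain of the basement membrane, had the most reads though not the highest FPKM in normoxia (889 ± 54.8 CPM in normoxia and 1454 ± 89.6 in hypoxia; SD, n = 3), and ITGB4, TRIM29 and DSG3 changed most, with log2-fold changes of 1.99, 1.46 and 1.35. Of 7 fibroblast markers, 2 were tested and 1 was higher. Their summed level was 22.1, 18.7 and 17.3 CPM in hypoxia and 4.03, 3.18 and 5.64 CPM in normoxia, nearly all of it COL1A1, which rose with 611, 667 and 518 reads in hypoxia and 131, 78 and 149 in normoxia (log2-fold change 2.26, adjusted p = 1.02e-09, edgeR). LUM had 27, 9 and 8 reads in hypoxia and 1, 1 and 2 in normoxia, and COL3A1 had at most 2 reads in a library. Of 5 endothelial markers, CDH5 alone was tested, at 0.95 ± 0.17 CPM in hypoxia and 0.433 ± 0.271 CPM in normoxia (SD, n = 3), and the list summed to 1.70, 1.32 and 1.60 CPM in hypoxia and 0.296, 0.315 and 0.744 CPM in normoxia. The leukocyte markers summed to 33.6, 37.3 and 39.6 CPM in hypoxia and 33.6, 32.9 and 35.9 CPM in normoxia, most of it CD68. CD14 was higher in hypoxia (5.83 ± 0.445 against 1.07 ± 0.481 CPM; SD, n = 3), with a log2-fold change of 2.45 (adjusted p = 7.27e-08, edgeR), and the pan-leukocyte gene PTPRC had 0, 0 and 2 reads in hypoxia and 0 in normoxia. Of 4 melanocyte markers, PMEL was tested, and the list summed to 2.06, 1.88 and 1.17 CPM in hypoxia and 0.322, 0.0699 and 0.372 CPM in normoxia. CDH5, PDGFRB and PMEL passed the filter only through the hypoxia libraries. Of the 6 markers of other cell types that were tested, 4 were higher in hypoxia (COL1A1, CDH5, CD14 and PMEL), while CD68 (adjusted p = 0.305, edgeR) and PDGFRB (adjusted p = 0.0507, edgeR) did not pass. Over all tested genes 39.2% were higher and 38.5% lower, 77.8% in both directions. The part of these markers in the keratin values was not tested.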

How the data were processed

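RNA was extracted with a column kit and libraries were made with a SMARTER mRNA-Seq kit, per the labels. The authors deposited raw read counts per gene and FPKM; for the 23 keratins with reads in more than 1 library, counts, FPKM and library totals gave the same gene length in each library within 1 base. The aligner, annotation and strand use are not given in the sources used here, and the submitters' processing notes list the mouse builds GRCm38 and mm10 for these human samples. For the counts, edgeR 4.0.16 was run in R 4.3.3 (quasi-likelihood F test, condition only, TMM, filterByExpr, 14255 genes, Benjamini-Hochberg at 0.05; SE is the log2-fold change over the square root of F), and log2(FPKM + 1) with limma 3.58.1 for genes of mean FPKM of at least 1. The scripts were tested first on simulated data with 200 changed genes, far fewer than were called in these data. Of the simulated calls, 4.78% were false with edgeR and 8.67% with limma on FPKM. Replicates differed beyond sampling noise (chi-square per gene 5.11 to 11.5). Total counts ran from 29637189 to 37278703, and the biological coefficient of variation was 0.0685. Coding sequences and overlaps came from GENCODE v29 transcripts and the gene order from RefSeq. Alternatives were other scalings, DESeq2 1.42.0, other filters and thresholds, summed paralogs, a replicate block and each library left out; summing KRT81, KRT83 and KRT86 was added after seeing the data. All tested keratins are named, and from each other list the 3 called genes with the largest change and the gene with the highest CPM. Outside this rule, all hypoxia response genes are named, as is SFN, which stands in both the plaque and the squamous list. COL3A1, LUM, PDGFRB, PTPRC, KRT7-AS and KRT10-AS1 were chosen for naming once their values had been seen. The members and lists were chosen with earlier results of these data known.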

Additional observations from a re-analysis of the deposited data

How the results depend on the processing

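The direction of every tested keratin held in all 243 alternative values for single keratins, sums over copies left aside, and 238 of them also stayed on the same side of the threshold. The calls of KRT5 and KRT81 were the exceptions. KRT5 changed by -0.14 (adjusted p = 0.0505, edgeR) with library totals alone, by -0.11 (0.127) with at least 10 counts in every library, by -0.15 (0.0624) without hypoxia replicate 2 and by -0.13 (0.0611) by limma on log2(FPKM + 1); KRT81 changed by 0.15 (0.0609) without hypoxia replicate 3. Requiring also a log2-fold change beyond 1 in size, 5 keratins were higher and 3 lower, and 4338 genes passed over the table in place of 11090. Leaving out 1 library at a time gave 7 to 8 keratins higher, 7 to 8 lower and 10669 to 11390 genes over the table, and 6 keratins higher and 6 to 7 lower by limma on FPKM, against 6 and 6 of 13 tested with all libraries, where 80.9% of all genes tested by limma passed (36.7% higher and 44.2% lower). The log2 ratio of KRT6A to KRT16 changed by -5.25 with a pseudocount of 0.1 FPKM, where the main value was -5.87. With 1 library left out at a time, this change ran from -6.14 to -5.68. Without a filter KRT32 was called lower as well. The replicate numbers did not pair the libraries (correlations of same-numbered deviations of 0.0175, -0.069 and 0.00122), and a fit with the replicate block called 8 keratins higher and 8 lower and 10875 of all 14255 genes. Depth limits the sparse genes most: KRT6C, KRT13, KRT16 and KRT19 rest on few reads in at least 1 condition. The sums over the KRT6 copies and over KRT81, KRT83 and KRT86 do not depend on how reads were divided within a family, whereas the values of single copies do.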

Other observations

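RefSeq promoters (GRCh38.p14) were given for 14 keratin genes, as 15 windows, and KRT5, KRT8 and KRT10 were the tested keratins among them. The letters ACGTG or GCGTG, the core of the hypoxia response element, occurred on either strand in the windows of KRT2 and KRT75, both with too few reads to test, and in 48.4% of all 35116 promoter windows. The AP-1 site (TGACTCA or TGAGTCA, either strand) occurred in 0 of the 15 keratin windows and in 4.95% of all windows. A match is a description of the sequence and no match says only that these letters are not in the window.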
